A study of Mus musculus with 6 samples.

Results

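The 10 genes described here encode Csk, the kinase that holds Src in check, and proteins that Src phosphorylates or binds where a cell grips its substrate. They are Csk, Ptk2, Ptk2b, Pxn, Bcar1, Nedd9, Cttn, Crk, Crkl and Ptpn11. Every probe set whose gene symbol is one of these names was taken, which gave 36 of the 45101 probe sets on the array, for 10 of the 18781 genes named. The platform annotation named 25 of them, and the other 11, which include all probe sets of Ptk2 and Nedd9, took their symbol from the annotation the authors deposited.

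RNA came from SYF cells, mouse embryonic fibroblasts without the kinases Src, Yes and Fyn, that had been stably transfected with a Src mutant and grown under hygromycin B. One line carried R388A/Y527F and the other D386N/Y527F. Both lines share Y527F, which takes away the tail tyrosine through which Src is held inactive. R388A disables a catalytic arginine in a way that imidazole can rescue, and D386N disables the catalytic aspartate, which imidazole does not rescue. Cells of each line were starved of serum overnight and then either left at 0 h or given 5 mM imidazole for 1 h or 12 h. Each of these 6 groups was measured on 1 array, so there were no replicates within a group. No 12 h sample without imidazole was analysed here. Imidazole and time cannot be told apart within a line. The lines are separate transfected populations, so the mutation and the history of each population cannot be told apart either. The labels do not say whether a line is a single clone.

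Focal adhesions are the protein plaques that join integrins to actin filaments. When integrins bind matrix, focal adhesion kinase phosphorylates itself and recruits Src, and the pair phosphorylates the scaffolds paxillin, p130Cas and its relative Nedd9. Crk and Crkl dock on those scaffolds and pass the signal to Rac and Rap. An array measures the transcripts of these proteins and not their phosphorylation.

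All values are signals on a linear intensity scale, given as the authors deposited them in 2 summaries of the same arrays. The GCOS signal is the main one, and the method of the second is not stated. GCOS signals had been scaled, so that on each of the 6 arrays the mean left after trimming 2% at each end was 150. Signals below 20.4, the 40th percentile of all GCOS signals, were set to that floor, and the floor was 11.3 in the second summary. Of the 36 probe sets, 28 were above the floor on all 6 arrays. Another 4, Ptk2 1440082_at, Ptk2b 1442437_at, Cttn 1421314_at and Crkl 1425604_at, were below it on every array and could not be tested, which left 32. The cell type was checked with markers: 8 of 8 fibroblast genes were above the floor on every array, with summed signals between 19489.9 and 21605.1 in R388A/Y527F and between 17795.6 and 19684.2 in D386N/Y527F. Of the markers of other cell types, 2 of 5 epithelial genes (Krt8, Krt18), 1 of 5 haematopoietic genes (Cd68), 3 of 4 neural and glial genes (Tubb3, Gfap, Sox10), 0 of 3 endothelial genes and 0 of 3 muscle genes were above the floor on all 6 arrays. In RNA from whole cultures, a lower level per cell and fewer cells with the transcript cannot be told apart.

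The only calls for these genes were differences between the lines, and all ran 1 way. Transcripts of the scaffolds Nedd9 and Pxn and of the kinase gene Ptk2 were lower in R388A/Y527F than in D386N/Y527F before imidazole and at both times after it. In the fit across all probe sets with limma, which treats the 3 times as replicates of a line and leaves 2 residual degrees of freedom, 6 of the 32 tested probe sets were lower in R388A/Y527F and 0 were higher at an adjusted p under 0.05. That is 18.8% lower, against a background of 7.25% lower and 6.82% higher among all 29728 probe sets tested. The median log2 difference of the 32 was -0.09, against -0.01 for all probe sets, and single values ran between -0.74 and 0.33. By the second summary 10 of 28 tested probe sets were lower and 0 higher, which is 35.7% against backgrounds of 14% lower and 10.7% higher. All 6 of the GCOS calls were also called there. These 6 probe sets belong to 3 genes, and those of 1 gene are not independent readings. The 10 genes were chosen with earlier results of these data known, so a share above the background is a description and gives no support.

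The calls depended on the variance setting and on which times were included. Without the trend in the variance prior 0 of the 32 were called, where 1072 of all 29728 probe sets were. Without the filter on dim probe sets it was 0 of 36, and 0 of all 45037. Without the 1 h arrays 0 of the 32 were called, and 112 of all 29728. Without the 12 h arrays it was 0 of the 32 and 282 of all 29728, and without the 0 h arrays 3 and 1799. The direction was the same in each of these settings for the 6 probe sets called.

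**Figure D1:**
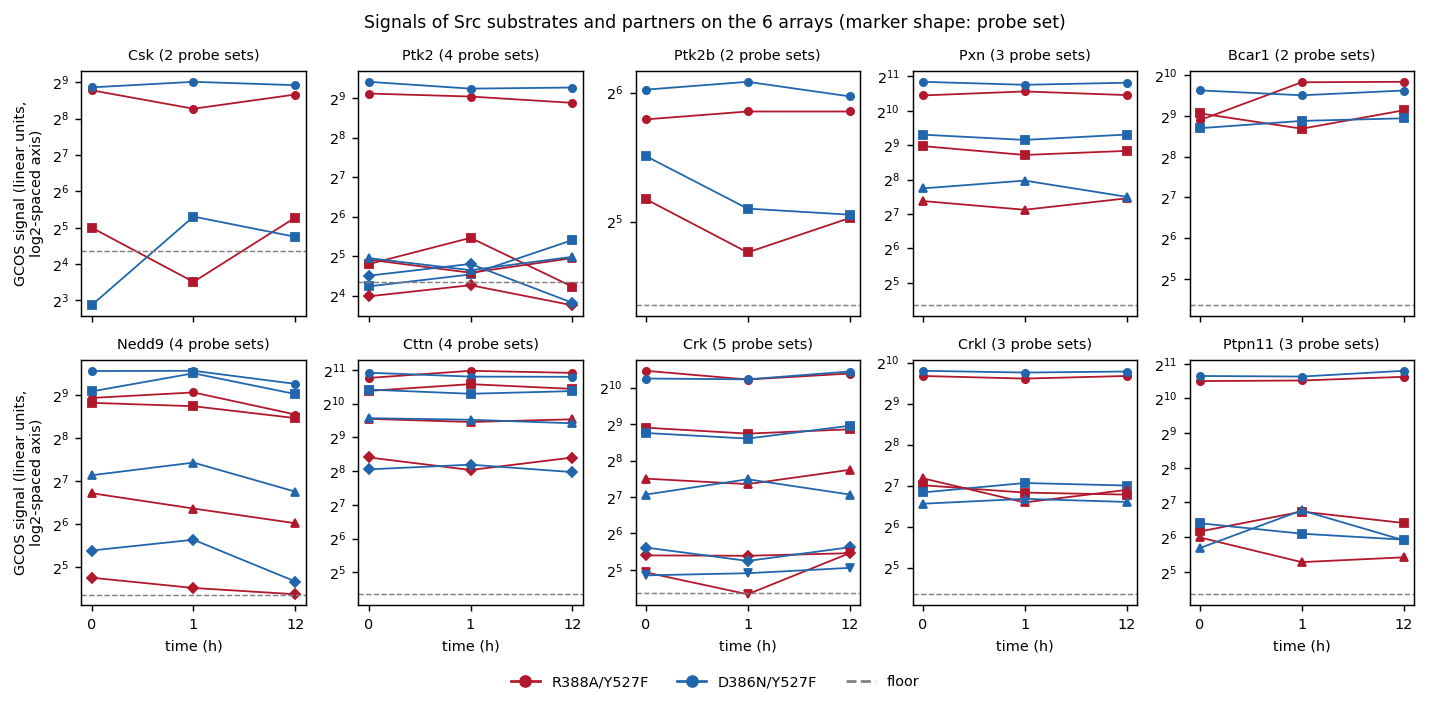
GCOS signal of each tested probe set (vertical axis, spaced in log2) against hours of imidazole (horizontal axis), with 1 panel a gene, 1 marker shape a probe set and 1 point an array; R388A/Y527F is red, D386N/Y527F is blue and the dashed line is the floor of 20.4. For each marker the red line lies under the blue one throughout in Nedd9 and Pxn, and they cross or touch for Bcar1, Cttn and Crk.

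Nedd9, also known as HEF1 or Cas-L, is a scaffold of the p130Cas family that binds focal adhesion kinase and becomes a docking site for Crk once phosphorylated. Its log2 differences ran between -0.74 and -0.53, and outside Nedd9 only that of the dim Ptpn11 1421196_at, -0.56, was as large as any of them. Its probe set 1437132_x_at gave 487.4, 532.5 and 373.1 at 0, 1 and 12 h in R388A/Y527F, against 751.4, 754.8 and 610.9 in D386N/Y527F. The highest array of R388A/Y527F was below the lowest array of D386N/Y527F. The log2 difference was -0.61 (SE 0.08, limma adjusted p = 0.0019), or 1.53-fold lower. A second probe set, 1422818_at, gave 450.5, 426.4 and 352.2 in R388A/Y527F, against 541.2, 725.0 and 518.7 in D386N/Y527F. Here too the lines did not overlap, and the log2 difference was -0.53 (SE 0.10, limma adjusted p = 0.0113). The dimmer 1450767_at gave 105.0, 82.0 and 64.7 in R388A/Y527F, against 140.2, 171.9 and 107.6 in D386N/Y527F, a log2 difference of -0.74 (SE 0.19, limma adjusted p = 0.0307).

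The last Nedd9 probe set, 1447885_x_at, lay near the floor and was not called. It gave 26.9, 22.8 and 20.6 in R388A/Y527F, against 41.7, 49.6 and 25.3 in D386N/Y527F, with a log2 difference of -0.68 (SE 0.23, limma adjusted p = 0.088). Across the 4 probe sets and 3 times, the R388A/Y527F array was the lower in 12 of 12 comparisons. The 3 probe sets that could be tested in the second summary had log2 differences of -0.76, -0.67 and -0.75, with limma adjusted p-values of 0.00557, 0.00423 and 0.0201. The probe sets are not independent readings, since 1422818_at and 1450767_at have the same aligned span on chromosome 13 and the suffix _x_at marks probes that may also bind other sequences.

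The promoter window of Nedd9 is shown because its transcript differed most between the lines. Those of Csk and Bcar1 are shown beside it, as genes with 0 calls in the GCOS signal. Csk does not stand for an unchanged gene, since 1423518_at was called lower in the second summary (-0.49, limma adjusted p = 0.0298). Windows run from 250 bases before to 50 after the start and are RefSeq's, on build GRCm38.p6. They are Nedd9 at chr13:41358952-41359251, Csk at chr9:57653582-57653881 and Bcar1 at chr8:111743800-111744099, each printed 5′ to 3′ on the minus strand. Capitals mark the motifs found.
Nedd9: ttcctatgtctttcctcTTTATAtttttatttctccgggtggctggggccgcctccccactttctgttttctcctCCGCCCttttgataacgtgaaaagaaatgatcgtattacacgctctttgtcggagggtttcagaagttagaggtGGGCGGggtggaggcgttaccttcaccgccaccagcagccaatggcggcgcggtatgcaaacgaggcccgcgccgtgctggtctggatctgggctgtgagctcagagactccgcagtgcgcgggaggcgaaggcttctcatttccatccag
Csk: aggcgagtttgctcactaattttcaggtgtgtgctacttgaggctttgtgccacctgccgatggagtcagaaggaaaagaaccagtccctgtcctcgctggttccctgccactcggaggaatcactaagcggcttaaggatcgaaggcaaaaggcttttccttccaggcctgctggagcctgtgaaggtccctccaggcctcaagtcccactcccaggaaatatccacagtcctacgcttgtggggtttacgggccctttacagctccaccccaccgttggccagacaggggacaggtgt
Bcar1: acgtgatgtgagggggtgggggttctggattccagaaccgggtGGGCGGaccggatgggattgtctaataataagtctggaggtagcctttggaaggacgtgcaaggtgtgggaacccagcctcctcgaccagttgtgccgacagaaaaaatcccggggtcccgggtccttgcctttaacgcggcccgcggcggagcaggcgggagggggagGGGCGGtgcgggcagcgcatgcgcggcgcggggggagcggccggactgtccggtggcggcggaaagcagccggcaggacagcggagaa
Both strands were searched for 7 motifs. These were the AP-1 site TGANTCA, the GC box GGGCGG, the TEAD site GGAATG, the E box CACGTG, the STAT site TTCNNNGAA, the ETS site CCGGAAGT and the TATA box TATAAA. Nedd9 held 2 GC boxes and 1 TATA match, on the other strand and far before the start, Bcar1 held 2 GC boxes, and this window of Csk held none of the 7. A second Csk window, not printed, held 1 GC box, and a second Bcar1 window, not printed, held 3. Of the 8 windows of the members 6 held a GC box and 1 a TATA match, against 35.7% and 13.6% of the 32851 windows of this length in the table. AP-1, TEAD, E box, STAT and ETS letters occur in 7.81%, 14.7%, 7.15%, 8.3% and 3.89% of all windows and in 0 of the 8 windows of the members. Windows were matched for 6 of the 10 genes. GC content was 55.7% for Nedd9, 56% for this Csk window and 66.7% for this Bcar1 window. The member windows not printed ran between 65% and 69.7%, and the median over all windows was 52.7%. The GC box counts were not adjusted for GC content.

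Pxn encodes paxillin, the adaptor that binds focal adhesion kinase and vinculin and is phosphorylated by both Src and focal adhesion kinase. Its brightest probe set, 1456135_s_at, gave 1394.9, 1511.6 and 1405.2 at 0, 1 and 12 h in R388A/Y527F, against 1835.5, 1728.7 and 1802.1 in D386N/Y527F. The probe set 1424027_at gave 502.9, 420.9 and 456.8 in R388A/Y527F, against 633.4, 569.6 and 634.8 in D386N/Y527F. In both the lines were apart on all arrays. Their log2 differences were -0.32 (SE 0.08, limma adjusted p = 0.0372) and -0.41 (SE 0.08, limma adjusted p = 0.00942), or 1.25-fold and 1.33-fold lower. The third, 1426085_a_at, gave 166.4, 139.6 and 175.7 in R388A/Y527F, against 214.6, 251.2 and 181.3 in D386N/Y527F. It had a similar log2 difference of -0.42 with a wider error (SE 0.16, limma adjusted p = 0.125), and at 12 h its lines nearly met. Over the 3 probe sets and 3 times R388A/Y527F was the lower in 9 of 9 comparisons. These are not independent readings, since the alignments of 1456135_s_at and 1424027_at end within 1 base of each other. The 1456135_s_at and 1424027_at differences were -0.32 and -0.43 by the second summary (limma adjusted p = 0.0115 and 0.0143), and that of 1426085_a_at was -0.28 (limma adjusted p = 0.285).

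Bcar1 encodes p130Cas, the founding relative of Nedd9, whose stretch of tyrosine repeats is a classic Src substrate. Its 2 probe sets did not share the pattern of Nedd9 and did not match each other. The probe set 1450622_at gave 536.6, 413.1 and 565.2 in R388A/Y527F, against 416.7, 471.8 and 493.1 in D386N/Y527F, with a log2 difference of 0.12 (SE 0.11, limma adjusted p = 0.542). The probe set 1439388_s_at gave 477.8, 911.5 and 918.3 in R388A/Y527F, against 793.4, 729.9 and 791.7 in D386N/Y527F. The 0 h array of R388A/Y527F was the low one, and the other 5 lay together. By the second summary the same arrays gave 374.8, 374.5 and 388.2 in R388A/Y527F, against 371.3, 349.1 and 345.6 in D386N/Y527F. The low 0 h value in the GCOS signal was therefore absent from the second summary.

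Ptk2 encodes focal adhesion kinase, which recruits Src through its own phosphorylated tyrosine. Only 1423059_at was bright, with 555.3, 526.7 and 471.4 in R388A/Y527F, against 682.1, 605.1 and 617.0 in D386N/Y527F. Every R388A/Y527F array was below every D386N/Y527F array, and the log2 difference was -0.30 (SE 0.08, limma adjusted p = 0.0404), or 1.23-fold lower. The second summary gave -0.40 (SE 0.05, limma adjusted p = 0.00718). The other 3 tested probe sets had signals between 13.5 and 44.1 and log2 differences between -0.20 and 0.11, with limma adjusted p-values of 0.537 or more. In these probe sets the lines overlapped.

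Ptk2b encodes Pyk2, the calcium-responsive relative of focal adhesion kinase. It was dim in this material, as 1434653_at gave 55.4, 57.8 and 57.8 in R388A/Y527F, against 65.0, 67.8 and 62.7 in D386N/Y527F. The lines did not overlap, yet the log2 difference of -0.19 (SE 0.22) had a limma adjusted p of 0.637, and in the second summary it was 0.02 (SE 0.09, limma adjusted p = 0.914). The dimmer 1442927_at had a log2 difference of -0.23 (SE 0.22, limma adjusted p = 0.562).

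Csk phosphorylates the tail tyrosine that is missing from both mutants, and in cells with normal Src it keeps the kinase closed. Its bright probe set, 1423518_at, gave 439.9, 309.4 and 405.7 in R388A/Y527F, against 464.8, 516.9 and 484.6 in D386N/Y527F. The lines did not overlap, and the 1 h array of R388A/Y527F was the lowest of the 6. The log2 difference was -0.36 (SE 0.12, limma adjusted p = 0.0942) in the GCOS signal and -0.49 (SE 0.11, limma adjusted p = 0.0298) in the second summary. The second summary gave 527.2, 359.0 and 515.5 in R388A/Y527F, against 653.3, 622.4 and 666.0 in D386N/Y527F, so the low 1 h array was present in both. Without the 1 h arrays the GCOS difference was -0.17, with a range of -0.50 to -0.17 over the 3 fits that each left out 1 time. The other probe set, 1439744_at, was below the floor on 1 array of each line and its lines overlapped.

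Cttn encodes cortactin, a Src substrate that steadies branched actin at the cell edge. Its 4 tested probe sets had overlapping lines and log2 differences between 0.01 and 0.21 in the GCOS signal, with no call. The brightest, 1433908_a_at, gave 1732.1, 2006.4 and 1922.4 in R388A/Y527F, against 1929.2, 1780.5 and 1772.3 in D386N/Y527F, a log2 difference of 0.04 (SE 0.09, limma adjusted p = 0.819). By the second summary 3 of 5 probe sets had every R388A/Y527F array above every D386N/Y527F array, against a background of 17.2%. The larger 2 of these differences were 0.20 and 0.25 (limma adjusted p = 0.087 and 0.0706).

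Crk and Crkl are the adaptors that bind phosphorylated Cas proteins and paxillin. The brightest Crk probe set, 1448248_at, gave 1411.0, 1195.1 and 1339.0 in R388A/Y527F, against 1218.0, 1199.4 and 1390.4 in D386N/Y527F, and its lines overlapped (log2 difference 0.05, SE 0.08, limma adjusted p = 0.765). The 5 Crk probe sets ran between -0.08 and 0.33 with no call. The dim 1460176_at was called in the second summary alone, at -0.40 (SE 0.07, limma adjusted p = 0.017), where its signals were between 19.8 and 30.7. For Crkl, 1436950_at gave 815.9, 780.7 and 815.8 in R388A/Y527F, against 890.6, 864.4 and 879.8 in D386N/Y527F. These lines lay apart by a small margin, with a log2 difference of -0.13 (SE 0.07, limma adjusted p = 0.313), and in the second summary it was -0.27 (SE 0.06, limma adjusted p = 0.0307). The other tested Crkl probe sets, 1421954_at and 1421953_at, stood at -0.09 and 0.28 in the GCOS signal with overlapping lines.

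Ptpn11 encodes SHP2, a tyrosine phosphatase with SH2 domains that acts on adhesion and growth factor signals. Its bright probe set, 1451225_at, gave 1448.5, 1466.3 and 1577.8 in R388A/Y527F, against 1604.7, 1586.1 and 1780.3 in D386N/Y527F. The lines were just apart, with a log2 difference of -0.15 (SE 0.08, limma adjusted p = 0.277) and -0.19 (SE 0.04, limma adjusted p = 0.0359) in the second summary. Of the dim ones, 1421196_at gave 63.5, 38.8 and 42.7 in R388A/Y527F, against 51.4, 109.2 and 60.1 in D386N/Y527F. Its high value was the 1 h array of D386N/Y527F, and its log2 difference was -0.56 (SE 0.33, limma adjusted p = 0.333). The other dim probe set, 1427699_a_at, leaned the other way, at 0.29 (SE 0.23, limma adjusted p = 0.485). By the second summary 1427699_a_at stood at 0.14 (SE 0.13, limma adjusted p = 0.494), and its lines overlapped in both summaries.

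**Figure D2:**
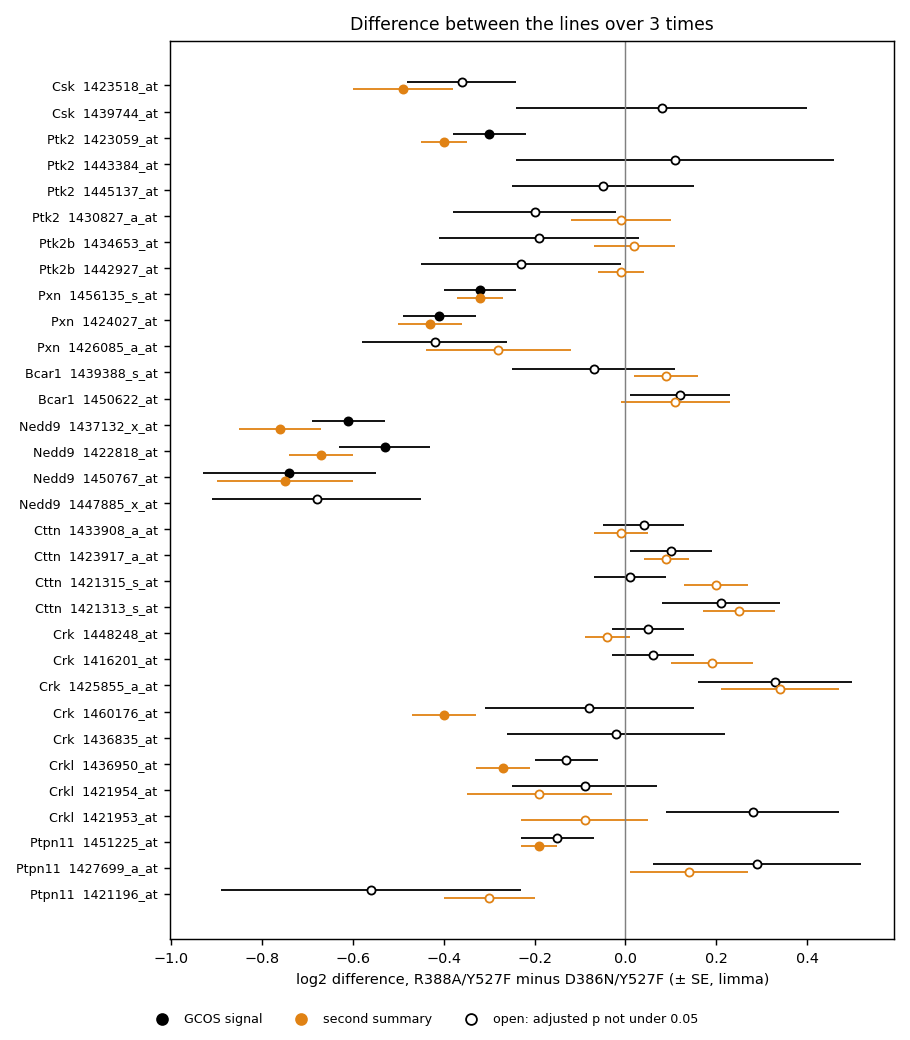
Log2 difference between the lines, R388A/Y527F minus D386N/Y527F (horizontal axis), for each tested probe set (rows), with bars of 1 standard error from limma; black is the GCOS signal, orange the second summary, and filled points passed an adjusted p of 0.05. All filled points lie left of 0, with Nedd9 farthest out.

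Over the 32 probe sets the arrays of R388A/Y527F lay wholly below those of D386N/Y527F in 11 and wholly above in 0, where the background was 15.8% below and 15.3% above. The second summary had 12 below and 4 above of 28, with backgrounds of 21.4% and 17.2%. For 27 probe sets tested in both summaries, 22 had the same sign of difference.

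The next question was whether imidazole changed these transcripts. Across all 29728 probe sets, limma called 0 for a change common to both lines at 1 h, 0 at 12 h and 0 for a treated change that differed between the lines, so the background was 0% for each. At an unadjusted p under 0.05 there were 1196, 2177 and 1099 probe sets in all, of which 0, 2 and 1 belonged to the 10 genes. The second summary also called 0 in each, with 1199, 3080 and 1254 at an unadjusted p under 0.05, of which 0, 5 and 1 belonged to the 10 genes. Each of these tests compared few arrays, and a value that missed the threshold does not show that a transcript stayed the same.

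Nedd9 accounted for both of the GCOS probe sets with an unadjusted p under 0.05 at 12 h. All of its tested probe sets were lower at 12 h than at 0 h in both lines and both summaries, and none passed the adjusted threshold. The change common to both lines was -0.34 (SE 0.10) for 1437132_x_at, with a limma adjusted p of 0.462 and an unadjusted p of 0.00735. For 1450767_at it was -0.54 (SE 0.23, limma adjusted p = 0.665). At 12 h against 0 h, 1437132_x_at stood at -0.39 in R388A/Y527F and -0.30 in D386N/Y527F.

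The largest differences of treated change between the lines were those of Bcar1 1439388_s_at and Ptpn11 1421196_at. That of Bcar1 was 1.00 (SE 0.15, limma adjusted p = 0.996, unadjusted p = 0.00122) in the GCOS signal and 0.12 (SE 0.15) in the second summary. It rested on the single low 0 h array described above. That of Ptpn11 was -1.30 (SE 0.60, limma adjusted p = 0.996), and in the second summary -0.36 (SE 0.12).

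**Figure D3:**
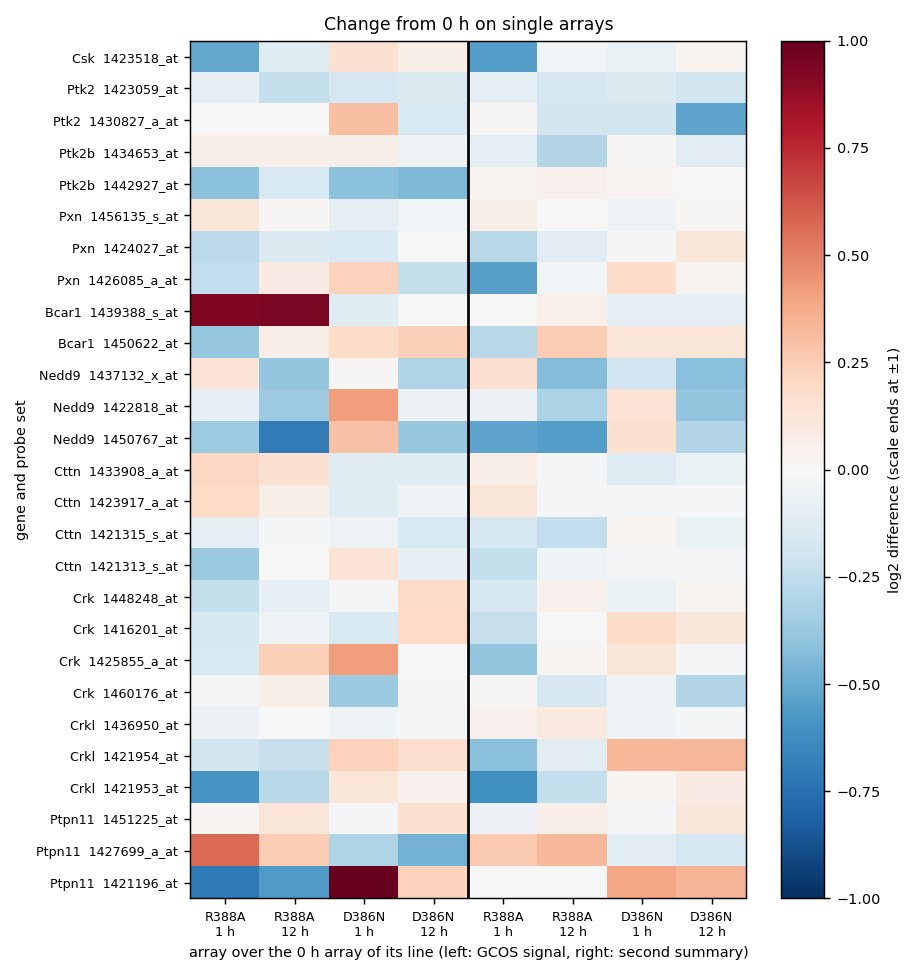
Log2 change of each array from the 0 h array of its own line (columns) for probe sets tested in both summaries (rows), with red higher and blue lower than at 0 h; the left block is the GCOS signal and the right block the second summary, and the colour scale ends at 1 in either direction. Nedd9 is blue at 12 h in both lines and both blocks, and the dark red cells of Bcar1 1439388_s_at in the left block have no match in the right block.

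Comparisons of single arrays by a 2-fold rule have no test. At 1 h, 3 probe sets were at least 2-fold lower in R388A/Y527F than in D386N/Y527F, against 5.85% of all probe sets in either direction. They were Nedd9 1450767_at at -1.07, Nedd9 1447885_x_at at -1.12 and Ptpn11 1421196_at at -1.49 on the log2 scale. At 12 h it was the dim Ptk2 1443384_at, at -1.06, against a background of 5.78%, and at 0 h there was none, against 5.27%. After imidazole, R388A/Y527F had 0 such probe sets at 1 h and at 12 h, against 2.24% and 2.11%. D386N/Y527F had 1 at each time, Ptpn11 1421196_at at 1.09 and Ptk2 1443384_at at 1.06, against 2.39% and 2.52%. In the second summary only Nedd9 1450767_at passed, at -1.12 between the lines at 1 h, against 3.76%. The other 6 comparisons had 0 there, with backgrounds of 3.59% and 3.69% between the lines at 0 h and 12 h, 0.182% and 0.152% in R388A/Y527F at 1 h and 12 h, and 0.0762% and 0.339% in D386N/Y527F.

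Other genes of the pathway were read from 5 lists, with 1 probe set a gene. The lists were chosen with earlier results of these data known, so their shares of calls are a description. In R388A/Y527F 10 of 52 tested genes were lower and 7 higher, where the background over 13999 genes was 9.27% lower and 7.95% higher. The second summary had 13 lower and 9 higher of 45, with backgrounds of 17.3% and 12.2%. In the GCOS signal the median log2 difference of the 52 genes was -0.03, against -0.02 for all 13999 genes. In limma 0 of the 52 were called for a change with time or treatment.

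Structural genes of the focal adhesion held most of these calls, with 8 of 21 tested genes lower, 3 higher and a median log2 difference of -0.28. Tns1, which encodes tensin 1, a link between integrins and actin, gave 125.7, 115.9 and 66.1 in R388A/Y527F, against 180.6, 249.7 and 182.0 in D386N/Y527F (log2 difference -1.03, SE 0.19, limma adjusted p = 0.00809). Tgfb1i1, which encodes Hic-5, the paxillin relative, stood at -0.77 (SE 0.11, limma adjusted p = 0.00235), and Sorbs3, which encodes the vinculin partner vinexin, at -0.67 (SE 0.12, limma adjusted p = 0.00828). Vcl, which encodes vinculin and was picked for mention after its values were seen, gave 1243.2, 1243.5 and 1306.4 in R388A/Y527F, against 1827.4, 1670.5 and 1904.5 in D386N/Y527F, a log2 difference of -0.51 (SE 0.08, limma adjusted p = 0.0042). Parvb, which encodes beta-parvin, a partner of integrin-linked kinase, went the other way. It gave 126.1, 96.0 and 124.7 in R388A/Y527F, against 24.4, 28.3 and 34.3 in D386N/Y527F, a log2 difference of 2.00 (SE 0.24, limma adjusted p = 0.00124). Outside the 4 largest, Actn4 (0.37) and Ilk (0.29) were also called higher (limma adjusted p = 0.017 and 0.0382). By the second summary this list had 9 lower and 3 higher of 20 tested.

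The remaining lists had fewer calls. Among 11 adaptors and Cas relatives, Grb2 (0.35) and Sh3kbp1 (0.30) were higher and Shc1 (-0.44) was lower. Among 7 genes of cortactin and branched actin, Wipf1 (0.55), which encodes a WASP partner, and Actr2 (0.31), a subunit of the Arp2/3 complex, were higher, and Dnm2 (-0.37), which encodes dynamin 2, was lower. None of 8 Src family genes and none of 5 regulators of the Src tail were called in the GCOS signal. Fyn and Yes1, which SYF cells lack, still gave signals above the floor on all 6 arrays. The probe set used for Fyn gave 226.0, 212.9 and 228.9 in R388A/Y527F, against 185.3, 209.0 and 238.4 in D386N/Y527F, and that for Yes1 gave 62.7, 61.1 and 53.8 in R388A/Y527F, against 67.0, 43.7 and 36.8 in D386N/Y527F. Whether these probes lie in a deleted stretch is not known from the files, so they do not check the label. In the second summary Lyn was higher (0.64) and Src (-0.66) and Ptpra (-0.40) were lower. Whether the Src probe set reads the transfected mutant is likewise not known, so its value is not a measure of the mutant's level. That probe set had GCOS signals between 19.1, which is below the floor, and 72.7. Its GCOS log2 difference was -0.77 (SE 0.36, limma adjusted p = 0.21). The Ptpra probe set was dim, with GCOS signals between 10.7 and 44.8 and a GCOS log2 difference of -0.19 (limma adjusted p = 0.603).

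**Figure D4:**
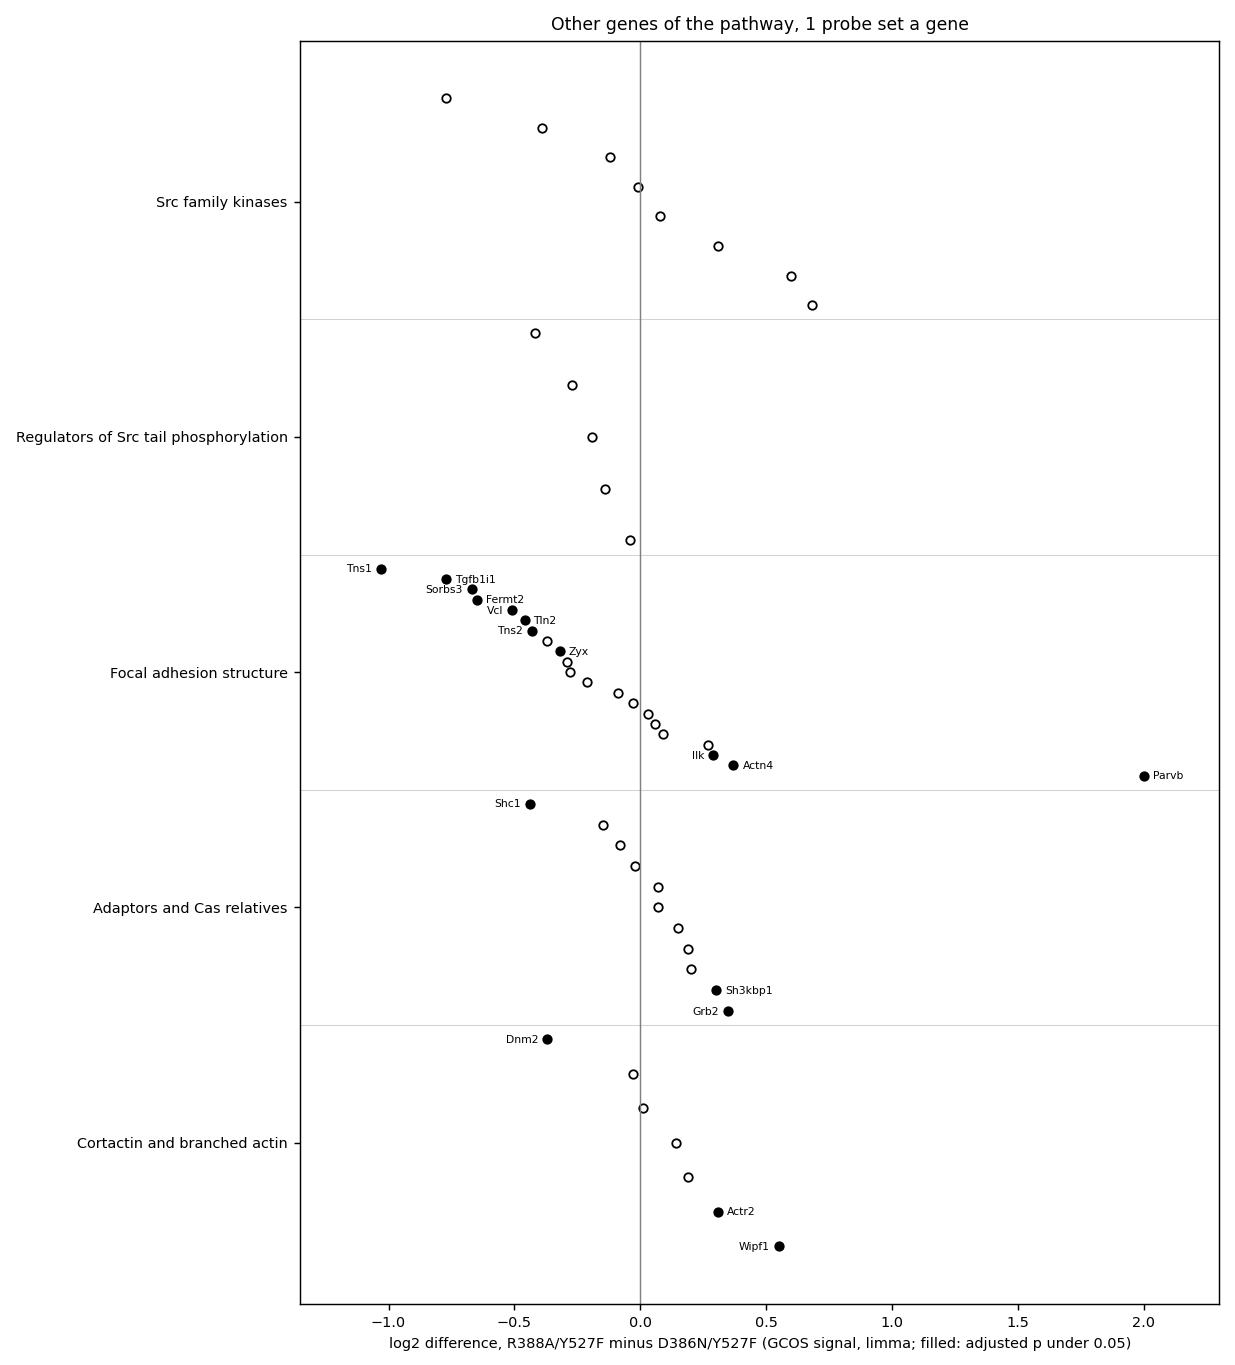
Log2 difference between the lines, R388A/Y527F minus D386N/Y527F in the GCOS signal (horizontal axis), for 52 genes in 5 lists (rows), with 1 point a gene; filled and named points passed a limma adjusted p of 0.05. Most filled points of the focal adhesion row lie left of 0, and Parvb lies alone at 2.00.

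For the 3 genes with the largest line difference on the probe set that stands for them, the genes with the most similar signals over the 6 arrays were listed as a description. Among 10964 genes, Pearson's r with Nedd9 was highest for Selenoo (0.994), Gm6787 (0.989) and Zfp41 (0.987), and 40 genes exceeded 0.95. For Pxn the nearest were Gm15867 (0.995), Afap1 (0.994) and Usp25 (0.994), with 214 genes above 0.95. For Csk they were Bcor (0.993), Wipi2 (0.992) and Mark3 (0.991), with 79. All 6 points share the 2 lines, so any gene that differs between the lines can score high. In the second summary r was 0.906 for Selenoo with Nedd9 and 0.976 for Afap1 with Pxn, but 0.44 for Gm6787 and 0.293 for Zfp41.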

How the data were processed

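Total RNA from 6 mouse cell samples was hybridised to Affymetrix MOE430 2.0 arrays, 1 per group. Per the submitters' processing notes, the authors made the deposited linear intensities in GCOS 1.3. The authors' deposited workbook also holds a second summary of the same arrays, likewise intensities, with its method not given in the sources used here. Neither holds detection calls, so a floor at the 40th percentile took their place. Signals were raised to the floor and taken to log2. Probe sets above it on at least 2 arrays went into limma (version 3.58.1, R 4.3.3), whose variance prior followed mean signal, and p-values were adjusted by Benjamini-Hochberg over all 29728 of them, with 0.05 as threshold. A model of line and time, and one of line, treatment and their interaction, were fitted to all 6 arrays, each with 2 residual degrees of freedom. The fit was tested on simulated data. The 64 control probe sets were left out.

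A probe set took its symbol from the platform annotation where it gave 1 symbol, and otherwise from the authors' annotation through the Entrez identifier. A gene outside the 10 was represented by 1 probe set, chosen by suffix (_at, _a_at, _s_at, _x_at) and then by mean signal. All 10 genes were named, with up to 4 called genes of each list by size of the line difference, and for the likeness the 3 nearest genes. One other gene list is not reported here. The genes and lists were chosen with earlier results of these data known. The array number limits the precision. Since no group had a replicate, p-values for the line difference rest on how it varied over the 3 times and on the variance prior. That prior draws on other probe sets of similar mean signal, so the SE of 1 probe set is not its own spread over the 3 times. The alternatives were the second summary, a floor at the 60th percentile, a pseudocount of 16, no filter, quantile normalization, no variance trend, 1 probe set per gene and leaving out each time. Naming by the platform annotation alone was added after seeing the data. Promoter windows are RefSeq's (GRCm38.p6). The build of the authors' alignments is not given in the sources used here.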

Additional observations from a re-analysis of the deposited data

Results flagged for a closer look

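Of 26 probe sets above the floor on all arrays in both summaries, 9 had both treated arrays of R388A/Y527F on 1 side of 0 h and both of D386N/Y527F on the other in the GCOS signal, and 5 did so in the second summary. The 3 that did so the same way in both were picked out. How often other probe sets on the array did so was not counted. Whether 9 and 5 exceed a background was therefore not tested. The changes at 1 h and 12 h of a line share its 0 h array, so they are not independent. For Crkl 1421954_at the difference of treated change was -0.40, with changes at 1 h and 12 h of -0.18 and -0.23 in R388A/Y527F, against 0.23 and 0.17 in D386N/Y527F. For Crkl 1421953_at it was -0.52, with -0.59 and -0.28 in R388A/Y527F, set beside 0.12 and 0.04 for D386N/Y527F. For Ptpn11 1427699_a_at it was 0.80, with 0.57 and 0.25 in R388A/Y527F, set beside -0.30 and -0.47 for D386N/Y527F. The interaction fit of limma gave an adjusted p of 0.996 for each, so the differences did not pass the test. Both summaries were used to pick these probe sets, so the differences in neither give support. In the second summary the differences were -0.60, -0.47 and 0.43. The brightest probe set of each gene did not show such opposite directions in the GCOS signal. There Crkl 1436950_at and Ptpn11 1451225_at changed by no more than 0.15 on any array. By the second summary Crkl 1436950_at rose slightly in R388A/Y527F (498.4, 511.4 and 535.3) and fell slightly in D386N/Y527F (628.0, 612.0 and 620.4).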

How the results depend on the processing

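The fit to the GCOS signal called 4182 probe sets for the line difference, and 6 of the members. The second summary called 6783 and 10, no filter 0 and 0, no variance trend 1072 and 0, and leaving out 1 time 112 to 1799 and 0 to 3. Of these, the 1 h arrays left out gave 112, the 12 h arrays 282 and the 0 h arrays 1799. With 1 probe set per gene 3 of 9 members were called lower, where 1511 of all 13999 were called lower. Cttn was left out of the 9, since the probe set that stands for it, 1421314_at, was below the floor on every array. The 4 Cttn probe sets tested in the main fit ran between 0.01 and 0.21. With members named by the platform annotation alone, an alternative added after seeing the data, 2 of 23 were called lower. That is near the background of 7.25% lower among all 29728 probe sets, and this naming leaves out all probe sets of Ptk2 and Nedd9. Without the filter the common changes at 1 h and 12 h had 2 and 9 calls, and the difference of treated change 941, with 0 members among them. That setting tests probe sets that sit at the floor on every array and have no variance. For the common change at 12 h the floor at the 60th percentile and the pseudocount called 2 each, and 1 probe set per gene called 1. The 2-fold rule gave 7697 calls over 7 comparisons, 3255 in the second summary and 2018 with the higher floor, and for the members 6, 1 and 1. Among single members, 253 of the alternatives for the line difference stayed on the same side of the threshold, 27 lost the call, 4 gained it, and 0 reversed a called difference. The sign changed in 14 of the 284, all without a call in either setting; the causes were not tested. The labels give no replicate numbers, and the model with time as a term already compares the lines within each time. Leaving out a time could not be run for the difference of treated change. Low signals limit Ptk2b, the dim Ptk2 probe sets and Nedd9 1447885_x_at.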
